A study of Oryza sativa Japonica Group with 238 samples.

Results

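The upstream regions of rice transcription factor genes were examined for how open their chromatin was in roots of 3 transgenic lines and up to 9 environments. A region was taken when the description of its gene in the deposited RNA table named WRKY, bHLH or helix-loop-helix, myb, bZIP, homeobox, AP2, no apical meristem, MADS or transcription factor. The rule used the gene descriptions and no measured value. It chose 645 of 35678 regions. Classed by the words of the description, 108 fall under myb, 97 under bHLH, 81 under WRKY, 40 under bZIP, 35 under homeobox, 35 under no apical meristem, 34 under AP2 and 25 under MADS. The myb class includes 8 genes described as GAMYB-binding proteins. A further 179 are described by other transcription factor terms, such as heat shock factors, GRAS proteins and NF-Y subunits, and 6 of these are described as NAC without the words no apical meristem. In the other 11 the letters of a family name stand inside another word, such as the name of an adaptor protein, and these were kept because the rule keeps them. The deposited files name each region by its gene identifier and give no coordinates, so no chromosome position or sequence is printed.

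Transcription factors bind short DNA sequences near genes and raise or lower their transcription. The genes that encode them are themselves controlled through such sequences, many of which lie upstream of the start codon and become accessible to enzymes when nucleosomes are displaced. WRKY factors bind W-box elements and are known for defence and stress responses. AP2/ERF, NAC and bZIP factors include regulators of drought, abscisic acid and low oxygen responses, MYB factors control secondary metabolism, cell walls and nutrient responses, homeobox factors of the HD-Zip class act in development and water stress, and MADS factors are best known from flowering.

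Chromatin was measured by ATAC-seq, in which the Tn5 transposase inserts adapters into accessible DNA. All plants were cultivar Nipponbare, and all lines carried a tag on the nuclear envelope (NTF) by which nuclei were captured from whole root systems. The lines are named by the promoter that drives the tag: p35S (a viral promoter widely used for broad expression), pCMZ and pQHB, here called 35S, CMZ and QHB. The labels give no cell type for these lines, so none was checked against marker genes. In the greenhouse, plants aged 26 days were well watered (control I and, for 35S, a separate control II), had no water for 5 to 6 days (deficit), stood with flooded roots for 5 days (waterlogging) or were wholly submerged for 5 days (submergence). Recovery groups had 1 further day of normal watering or drainage and were 27 days old. Field plants were 49 days old and had been moved from the greenhouse to a paddy. Line 35S was measured in all 9 environments, CMZ in 6 (not submergence, its recovery or control II) and QHB in control I and deficit. Each of the 17 groups has 3 libraries. In the greenhouse a library came from a pot whose 21 plants were combined, while the labels do not say what a field replicate is. Submergence was set against control II; this choice is an inference from the labels' numbering.

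The 51 libraries differ in depth and in how far counts are concentrated in few regions. Total counts over all regions ran from 1340979 to 17113727 in 35S, from 812498 to 3845676 in CMZ and from 1292588 to 2809634 in QHB. Pairs of libraries of one 35S group had Spearman coefficients across regions of 0.92 to 0.97 in submergence, control II and field, and of 0.64 to 0.72 in deficit. The lowest pair stood at 0.33 in CMZ and 0.30 in QHB, both under deficit. The most covered 5% of regions took 22.8 to 23.1% of counts in the 35S field libraries, 20.3 to 21.1% in control II, 14.4 to 18.4% in control I, 10.7 to 17.1% in deficit and 7.11 to 7.30% in CMZ deficit. This concentration moves with several of the comparisons below, and its part in them was not tested. In mixed root tissue, fewer open cells and less opening per cell cannot be told apart.

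In well-watered 35S roots the factor regions were slightly more accessible than other regions. Levels are given as CPM, a region's count relative to its library's total over regions passing the filter on low counts. Libraries were scaled by the trimmed mean of M values. The median factor region held 24.5 CPM in 35S control I, with quartiles of 18.2 and 38.0, and stood at percentile 58.8 of all regions. The median was 25.2 CPM for 716 protein kinase regions, 23.4 for other genes with RNA values and 18.5 for genes without. In the 35S field group the factor median was 30.6 CPM and that of genes without RNA values 10.6. In CMZ deficit the factors' quartiles closed to 21.0 and 27.2 CPM. Of the 645 regions, 1 was at 0 in every library, and the other 644 passed the filter on low counts and were tested. No factor region shared its counts with another region.

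The most accessible factor region in 35S control I was that of OS05G0322900, a WRKY gene described for benzothiadiazole-inducible blast resistance and as similar to WRKY45, at 305 ± 86.8 CPM (SD, n = 3). It was followed by an R2R3 MYB gene (OS06G0637500, 259 ± 90.6 CPM), a WRKY51-like gene (OS04G0287400, 248 ± 61.3 CPM) and a NAC gene (OS10G0359500, 237 ± 61.6 CPM). The SDs of these 4 are larger than the gaps between them, so their order is not resolved. Next came a bZIP gene related to RSG (OS11G0160500, 181 CPM), a WRKY gene of disease resistance (OS05G0343400, 171 CPM), a GRAS gene (OS04G0580300, 137 CPM), a bZIP-like gene (OS12G0162500, 133 CPM) and an AP1/FUL-like MADS gene described for inflorescence identity (OS07G0605200, 128 CPM). The last of the 10 highest was a MYB-CC gene of phosphate starvation signalling (OS07G0438800, 124 CPM). At the other end stood a Myb/SANT-like gene (OS09G0248900, 6.32 CPM), a bZIP gene of leaf development (OS06G0720900, 5.80 CPM), WRKY12-like OS01G0182700 (5.56 CPM), WRKY57-like OS12G0102300 (4.23 CPM) and the Tfb4 family gene OS02G0125800 (4.18 CPM). Across the 645 factors, accessibility and RNA in 35S control I had a Spearman coefficient of 0.43, against 0.22 across 27603 other genes. The RNA values come from tagged ribosomes (TRAP) of separate 35S plants that carry a FLAG-tagged RPL18 ribosomal protein, and genes are not independent replicates.

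Submergence was the greenhouse treatment of 35S with the most factor regions called. At an edgeR adjusted p below 0.05, 66 of 644 were called, 36 more accessible and 30 less, or 10.2%, beside 6.73% of all regions tested; 11.6% of the kinase regions were called. The rule could draw only on genes with a row and a description in the TPM table, while all regions include genes without one. Among regions whose gene had an RNA test, 10.3% of 603 factor regions and 7.77% of 25820 regions were called. By direction, 5.59% of factor regions were higher and 4.66% lower, beside 2.95% and 3.78% of all regions. Among regions whose gene had an RNA test, the shares were 5.8% and 4.48%, beside 3.53% and 4.24%. The median log2 difference was 0.05 over the factors and 0.01 over all regions. Of 81 WRKY regions 8 were called higher and 1 lower, and the median log2 difference over all 81 was 0.28. Of 97 bHLH regions 1 was called higher and 7 lower, and the median was −0.03. Calls fell on both sides in the myb class (7 of 108 higher, 11 lower), AP2 (5 of 34 higher, 2 lower), no apical meristem (2 of 35 each way), bZIP (2 of 40 higher, 1 lower) and homeobox (1 of 35 each way), and 1 of 25 MADS regions was lower. Under other transcription factor terms 10 were higher and 4 lower, and these hold 3 genes described as NAC: OS07G0683200 and OS12G0123700, both higher, and OS01G0191300, lower. No family was tested as a group. When only the submergence and control II libraries were fitted, 130 factor regions were called, 82 of them higher. Without submergence replicate 1 the count was 38, and without control II replicate 2 or 3 it was 42.

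The bZIP gene OS03G0796900, described for the globulin promoter of endosperm, had the smallest p of all factors under submergence. Its region held 20.5, 15.4 and 15.1 CPM in the control II libraries and 82.1, 71.8 and 45.1 CPM in the submergence libraries. After 1 day of recovery it held 16.8, 13.3 and 19.2 CPM. The submergence libraries all lie above the others, and the recovery libraries overlap those of control II. The fitted rise was 1.97 on the log2 scale (SE 0.21, edgeR adjusted p = 3.35e-10) and the fitted fall in recovery −2.01 (edgeR adjusted p = 2.97e-09). Its RNA stood at 24.0 ± 5.02 TPM in control II and 91.0 ± 25.6 TPM in submergence (SD, n = 3; limma adjusted p = 9.90e-06).

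A NAC gene (OS07G0683200) held 23.7, 26.8 and 23.8 CPM in control II, 70.8, 74.2 and 56.8 CPM in submergence and 31.6, 38.5 and 36.8 CPM in recovery. The 3 groups do not overlap, and recovery lies between the others. The rise was 1.44 (SE 0.21, edgeR adjusted p = 1.11e-06), and its RNA went from 6.03 ± 0.645 to 70.5 ± 19.5 TPM (limma adjusted p = 6.34e-05). A second stress NAC gene (OS12G0123700) held 64.4, 71.1 and 60.8 CPM in control II and 138, 193 and 160 CPM in submergence, again without overlap. Its RNA was low, at 2.42 and 5.30 TPM, and did not pass the test (limma adjusted p = 0.10).

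WRKY genes gave 3 of the 10 regions with the smallest p for a rise. The gene OS09G0417800, described as a WRKY repressor in pathogen defence with a splicing variant of WRKY62, held 30.6, 28.8 and 32.3 CPM in control II and 72.0, 78.0 and 61.8 CPM in submergence. All submergence libraries exceeded all control II libraries, and its RNA rose from 8.56 to 51.1 TPM (limma adjusted p = 0.000527). The WRKY10-like gene OS01G0186000 held 17.1, 14.3 and 20.2 CPM, then 41.2, 48.9 and 38.8 CPM. The WRKY1-like gene OS01G0185900 held 26.8, 21.8 and 24.4 CPM, then 63.6, 57.1 and 38.8 CPM. Both were higher in every submergence library than in any control II library. Their identifiers are consecutive, so their 2000-base windows could share DNA; this was not tested.

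The AP2 class was led by a TINY-like gene (OS06G0166400, 31.1 ± 4.93 CPM in control II and 77.7 ± 20.4 CPM in submergence, SD, n = 3) and an AP2/ERF-B3 gene of the salt response (OS01G0141000). The latter held 46.7, 33.3 and 40.8 CPM in control II, 89.0, 126.7 and 73.6 CPM in submergence and 39.0, 46.7 and 65.8 CPM in recovery. Submergence stood above both other groups, and its RNA rose from 3.03 to 35.1 TPM (limma adjusted p = 7.65e-06). A ZF-HD homeobox gene (OS08G0438400) rose from 22.5 ± 3.19 to 47.4 ± 15.1 CPM. A CHY zinc finger gene, described as a co-activator of the drought and salt tolerance factor DST (OS10G0456800), rose from 55.3 ± 2.46 to 135.6 ± 26.7 CPM.

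The smallest p for a loss of accessibility belonged to a MYB gene. The R2R3-MYB gene OS08G0151300, described for leaf shape and cellulose synthesis, held 43.3, 26.2 and 24.7 CPM in control II and 12.5, 12.1 and 10.2 CPM in submergence. The groups do not overlap, and recovery libraries lay between them at 21.6, 17.4 and 17.01 CPM. The fall was −1.43 (SE 0.21, edgeR adjusted p = 2.16e-06), and the RNA went from 7.49 to 0.191 TPM (limma adjusted p = 1.49e-06).

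The R2R3 MYB gene of phosphate starvation and root architecture (OS05G0140100) held 55.4, 53.9 and 40.4 CPM, then 17.8, 26.1 and 24.4 CPM. Its RNA fell from 3.10 to 0.231 TPM (limma adjusted p = 1.27e-05). The MYB86-like gene OS01G0702700 held 41.8, 37.1 and 38.1 CPM in control II, 20.9, 15.4 and 22.8 CPM in submergence and 37.1, 32.8 and 37.9 CPM in recovery. In both genes the submergence libraries lay below all control II libraries. The MYB86-like region was the only factor region called higher in recovery than in submergence (log2 0.87, edgeR adjusted p = 0.0238).

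The remaining regions among the 10 with the smallest p for a fall were those of 2 AP2 genes (Rap211 gene OS02G0657000, 20.8 ± 1.87 to 8.91 ± 1.12 CPM, and RAP2-like OS11G0156000), a GRAS gene (OS05G0500600), 2 helix-loop-helix genes (OS02G0315600 and OS02G0178700), WRKY1 (OS01G0972800) and the heat stress factor C-2b-like gene OS06G0553100. Their log2 differences ran from −1.22 for OS02G0657000 to −0.90 for OS01G0972800. All 20 regions had groups that did not overlap. Choosing by the smallest p favours such separation, so it adds no support to the calls. The same holds for regions named by smallest p in the other comparisons below. The share of all regions with groups that do not overlap was not counted.

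**Figure D1:**
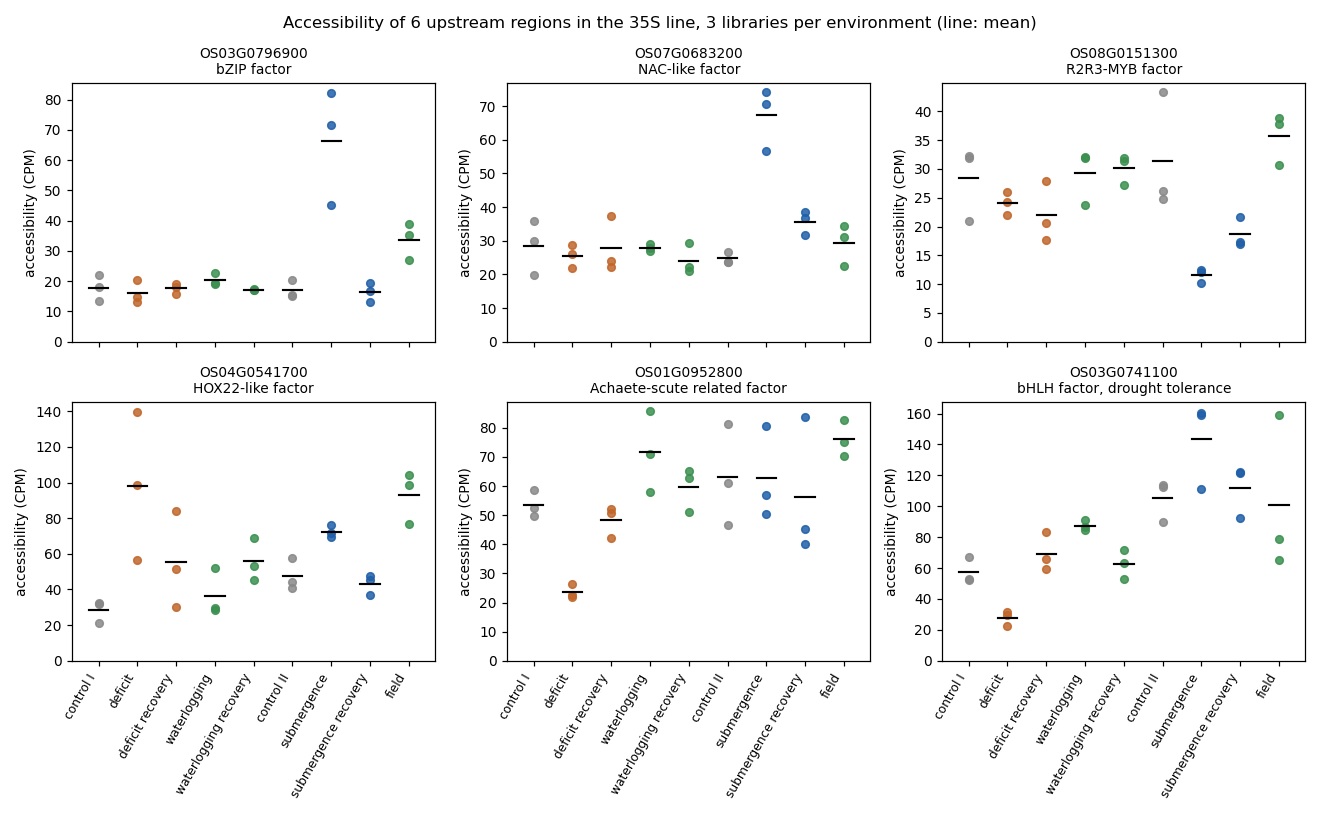
Accessibility in CPM of 6 factor regions in every 35S library, by environment; each point is a library and each bar the mean of 3. The bZIP region OS03G0796900 stands at 45.1 to 82.1 CPM in submergence and at 13.3 to 20.5 CPM in control II and recovery, while the HOX22-like region OS04G0541700 is high in deficit and field.

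After 1 day of recovery from submergence, 20 of 644 factor regions differed from submergence (1 higher, 19 lower), or 3.11%, beside 1.78% of all regions. By direction, 0.155% of factor regions were higher and 2.95% lower, beside 0.548% and 1.23% of all regions, so both leaned lower. Besides the bZIP region, the smallest p for a fall belonged to a homeodomain-leucine zipper gene described for panicle exsertion (OS03G0198600, 49.8 ± 9.32 to 19.7 ± 3.41 CPM), the ZF-HD region OS08G0438400, a basic leucine zipper gene (OS02G0833600, 47.9 ± 16.2 to 21.3 ± 2.13 CPM) and a RAP2-like AP2 gene (OS03G0183000, 33.0 ± 6.88 to 14.3 ± 2.12 CPM). The comparison shares the submergence libraries with that against control II. Of the 36 regions higher in submergence, 16 were called lower in recovery than in submergence. Of the 30 lower ones, 1 was called higher. These counts were made for factor regions only, so they do not set factors apart from other regions. Without submergence replicate 2 the count of 20 fell to 7, without recovery replicate 1 to 8 and without submergence replicate 1 to 13.

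Set against control II itself, recovery called 0 of 644 factor regions with edgeR, beside 0% of all regions; 32 had an unadjusted p below 0.05, and DESeq2 called 0. Over the 36 regions higher in submergence, the median log2 difference from control II was 0.96 in submergence and 0.33 in recovery, and 28 kept a positive sign. Over the 30 lower regions the medians were −0.89 and −0.31, and all 30 kept a negative sign. Both contrasts use the same control II libraries.

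RNA moved with chromatin in submergence for a majority of the called factors. In TRAP RNA of 35S, 126 of 604 factor genes passed the limma test with a log2 change of at least 1 (73 higher, 53 lower), beside 20.1% of all genes tested. Of 35 factors with higher accessibility and an RNA test, 22 had higher RNA and 1 lower, or 62.9% higher, beside 12.1% among all factors with both tests. Of 27 with lower accessibility, 14 had lower RNA and 0 higher, or 51.9% lower, beside 8.79%. Over all regions with both tests, 54.7% of 911 higher regions had higher RNA and 45.3% of 1095 lower regions had lower RNA. The exception in sign was the MYBS2-like gene OS01G0187900, whose region rose from 20.8 to 32.9 CPM while its RNA fell from 12.9 to 5.70 TPM.

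**Figure D2:**
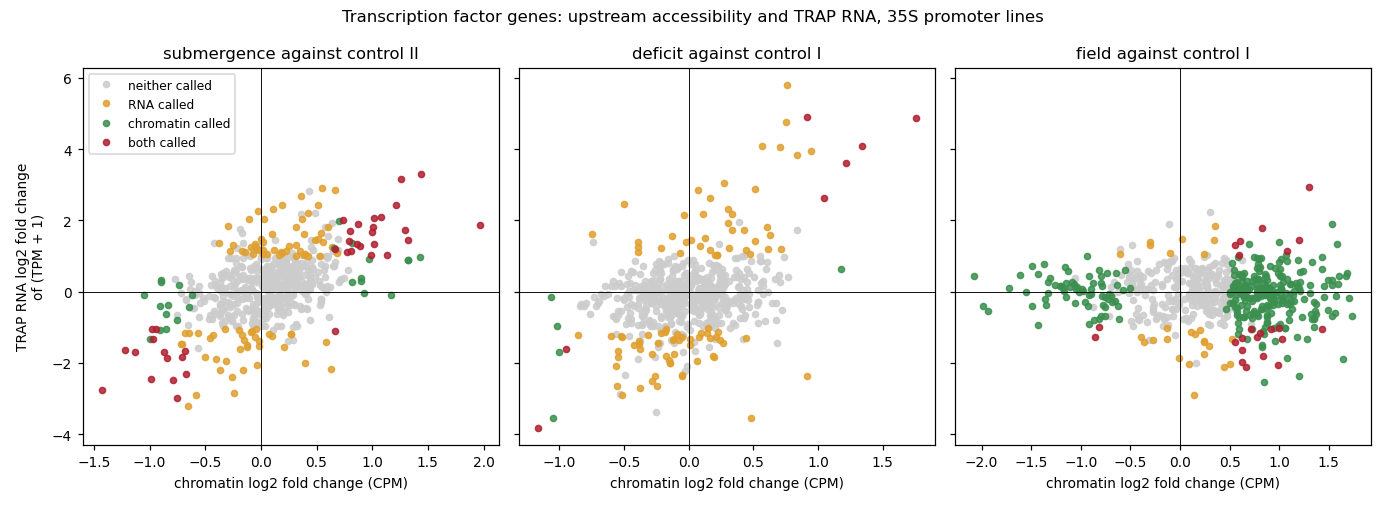
Log2 difference in accessibility of each factor region (x axis) against log2 difference in TRAP RNA of its gene (y axis, on log2(TPM + 1)) in 35S for submergence, deficit and field; each point is 1 of 603 factor genes with both tests. In submergence 36 of the 37 genes called in both measures have the same sign, in deficit 7 of 7 and in the field 9 of 23.

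Few factor regions of 35S were called under water deficit, and these included heat shock factor and homeobox genes on the higher side. Deficit libraries held 1688253 to 4235407 counts and control I libraries 1927325 to 5319257. Submergence libraries held 7378002 to 10647423 counts and control II libraries 5899153 to 7190848. The part of depth in the number of calls was not tested. Of 644 regions, 13 were called (7 higher, 6 lower), or 2.02%, beside 0.802% of all regions. By direction, 1.09% of factor regions were higher and 0.932% lower, beside 0.511% and 0.291% of all regions. By description the higher ones were 3 heat shock factor genes, a HOX22-like homeobox gene, a MYB gene, a NAC gene and a helix-loop-helix gene. The lower ones were 2 WRKY genes, an NGA1-like gene, a GAMYB-binding protein gene, an Achaete-scute related gene and a bHLH gene. The count was 2 without control I replicate 3, 5 without deficit replicate 3, and 6 and 7 without control I replicates 1 and 2. Of the 13 regions, those of HOX22-like OS04G0541700 and heat shock factor OS01G0733200 were called under all 11 alternatives.

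HD-Zip factors of the HOX22 kind are known as water stress genes of rice. The region of HOX22-like OS04G0541700 held 21.5, 31.8 and 32.4 CPM in control I, 98.6, 56.3 and 139.3 CPM in deficit and 51.6, 30.1 and 83.8 CPM after 1 day of watering. Deficit libraries all exceeded those of control I, whereas recovery overlapped both groups. The rise was 1.76 (SE 0.28, edgeR adjusted p = 3.98e-05). Its RNA stood at 10.7, 12.3 and 10.9 TPM in control I and 384, 379 and 313 TPM in deficit (limma adjusted p = 4.48e-11). The RNA rose in all 3 lines, from 5.96 to 429 TPM in CMZ and from 11.1 to 274 TPM in QHB.

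The HOX22-like region (OS04G0541700) did not pass the test in the other lines. In CMZ it held 34.8, 26.4 and 44.3 CPM in control I and 51.8, 40.1 and 47.5 CPM in deficit, which overlap (log2 0.51, edgeR adjusted p = 0.44). In QHB it held 24.4, 35.7 and 48.6 CPM, then 38.2, 81.6 and 48.3 CPM, which also overlap (log2 0.68, edgeR adjusted p = 0.63). The difference of the deficit responses was −1.25 (SE 0.47, edgeR adjusted p = 0.79) for CMZ minus 35S and −1.10 (SE 0.46, edgeR adjusted p = 0.91) for QHB minus 35S, so a difference between lines was not detectable. The same region was also high in the 35S field libraries, at 93.2 CPM on average, where its RNA did not pass the test (limma adjusted p = 0.28).

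Heat shock factors bind heat shock elements and switch on chaperone genes. The HSF29-like region OS01G0733200 held 11.8, 16.4 and 15.8 CPM in control I, 45.1, 31.7 and 38.2 CPM in deficit and 21.5, 21.5 and 18.4 CPM in recovery. The groups do not overlap (log2 1.34, SE 0.25, edgeR adjusted p = 0.000794). The other HSF29-like region, OS02G0232000, held 36.5, 31.1 and 36.3 CPM, then 74.4, 47.0 and 118 CPM.

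The HSF31-like region OS01G0571300 held 14.5, 18.0 and 17.1 CPM in control I, then 28.7, 29.3 and 36.0 CPM in deficit. Deficit was above control I in every library of all 3 genes. In 35S the RNA rose from 3.89 to 99.7 TPM for OS01G0733200, from 18.0 to 218 TPM for OS02G0232000 and from 0.671 to 48.5 TPM for OS01G0571300. The RNA of each also passed the limma test in CMZ and in QHB.

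On the lower side, the Achaete-scute related gene OS01G0952800, a helix-loop-helix class gene, held 52.6, 49.6 and 58.5 CPM in control I, 22.0, 22.7 and 26.5 CPM in deficit and 52.1, 42.3 and 50.7 CPM in recovery. Deficit lay below both other groups, which overlap each other. The fall was −1.16 (SE 0.26, edgeR adjusted p = 0.00889). Its RNA fell from 146 ± 60.01 to 8.91 ± 2.12 TPM in 35S (limma adjusted p = 3.34e-05), from 285 to 11.2 TPM in CMZ and from 82.3 to 4.83 TPM in QHB.

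The bHLH gene of drought tolerance, OS03G0741100, held 67.1, 52.4 and 53.2 CPM in control I, 29.3, 22.3 and 31.4 CPM in deficit and 83.1, 59.5 and 65.8 CPM in recovery. Its deficit libraries were the lowest 3 (log2 −1.05, edgeR adjusted p = 0.0399), but the call was lost whichever of the 6 libraries was left out. Its mean RNA was 277 TPM in control I and 13.7 TPM in deficit and did not pass the test (limma adjusted p = 0.077). NGATHA-type B3 factors are known from organ growth in Arabidopsis. The NGA1-like gene OS08G0157700 held 44.0, 40.5 and 41.3 CPM, then 19.7, 20.7 and 24.1 CPM, and 64.1, 50.9 and 54.9 CPM in recovery. Recovery stood above control I and deficit below it.

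The GAMYB-binding protein gene OS10G0408700 was the only factor region called in the deficit of 2 lines, and each call was kept under 7 of 11 alternatives. It held 69.2, 47.4 and 56.0 CPM in control I and 33.3, 18.3 and 30.9 CPM in deficit in 35S (log2 −1.06, edgeR adjusted p = 0.0362). In CMZ it held 21.3, 39.7 and 57.8 CPM, then 13.8, 6.27 and 12.4 CPM (log2 −1.82, edgeR adjusted p = 0.00981). In QHB it held 21.8, 53.6 and 68.9 CPM, then 11.2, 27.2 and 8.51 CPM, which overlap (log2 −1.61, edgeR adjusted p = 0.061). In 35S and CMZ each deficit library was below each control I library. Its RNA did not pass the test in any of the 3 lines.

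Over all factors in deficit, TRAP RNA was called for 100 of 604 genes in 35S (46 higher, 54 lower), beside 14.4% of all genes. It was called for 48 of 623 in CMZ (25 higher, 23 lower), beside 6.42%, and for 61 of 599 in QHB (35 higher, 26 lower), beside 10.4%. Of the 6 regions higher in 35S deficit with an RNA test, 5 had higher RNA, and of the 6 lower ones 2 had lower RNA. Over all regions, 74.6% of 169 and 39.3% of 89 moved likewise.

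The number of chromatin calls under deficit in the other lines depended on the test. In CMZ edgeR called 1 of 644 factor regions (the GAMYB-binding region), beside 0.0198% of all regions, although 120 had an unadjusted p below 0.05 and DESeq2 called 43, all lower. With only the 2 groups in the fit 47 were called in CMZ. In 35S the same alternatives gave 16 by DESeq2 and 14 with only the 2 groups, so the order of the lines turned under both. In QHB edgeR called 0, beside 0% of all regions, with 64 at an unadjusted p below 0.05 and 0 by DESeq2; without QHB control I replicate 1 the count was 22. The difference of the deficit responses was called for 0 factor regions between CMZ and 35S, beside 0.00283% of all regions (53 unadjusted, DESeq2 0), and for 0 between QHB and 35S, beside 0% (45 unadjusted, DESeq2 0). CMZ deficit libraries had the lowest concentration of counts of the CMZ groups. The most accessible WRKY region, OS05G0322900, held 166, 169.8 and 271 CPM in CMZ control I and 35.8, 42.0 and 37.3 CPM in CMZ deficit, far apart in level but not past the test (log2 −2.30, edgeR adjusted p = 0.064).

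Recovery from deficit differed from deficit in 6 of 644 factor regions in 35S (4 higher, 2 lower), or 0.932%, beside 0.593% of all regions. By direction, 0.621% of factor regions were higher and 0.311% lower, beside 0.328% and 0.266% of all regions. The 4 higher regions were the NGA1-like, WRKY (OS01G0820700), bHLH (OS03G0741100) and Achaete-scute related ones, each also called lower in deficit. Both comparisons use the same 3 deficit libraries, so a low level there enters both calls. The 2 lower were a zinc finger gene (OS01G0738400, 46.0 ± 7.71 to 25.1 ± 2.71 CPM) and the RAP2-like gene OS12G0168100. The count ranged from 2 without recovery replicate 1 to 50 without deficit replicate 3. It was 3 without deficit replicate 1 and 25 without recovery replicate 2. DESeq2 called 35, and 19 were called with a replicate block. Against control I, recovery called 0 factor regions with edgeR, beside 0% of all regions (46 at an unadjusted p below 0.05, DESeq2 0). The 7 regions higher in deficit had medians of 1.18 in deficit and 0.52 in recovery against control I. The 6 lower ones had medians of −1.03 and 0.15. In CMZ, recovery against deficit called 0, beside 0.00283% (81 unadjusted, DESeq2 0, and 41 when only those 2 groups were fitted).

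The RAP2-like AP2 gene OS12G0168100 was called in 4 comparisons within 35S, the most of any factor region. It averaged 13.3 CPM in control II, 35.7 in submergence (log2 1.43, edgeR adjusted p = 0.000262) and 16.9 in the recovery from submergence. Its 3 deficit libraries held 40.0, 27.3 and 40.1 CPM beside 28.4, 17.4 and 16.7 CPM in control I and 13.7, 21.5 and 13.4 CPM in recovery. Deficit overlapped control I and stood above recovery. Its RNA did not pass the test in submergence (0.366 and 1.66 TPM) or deficit (1.47 and 5.18 TPM). Comparisons of stress with control and of recovery with stress share the stress libraries, so these calls are not independent.

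Waterlogging left no factor region past the threshold. In 35S edgeR called 0 against control I, beside 0% of all regions (49 unadjusted, DESeq2 0), and 0 in recovery against waterlogging, beside 0% (12 unadjusted, DESeq2 0). In CMZ it called 0 against control I, beside 0% (20 unadjusted, DESeq2 0), and 0 in recovery, beside 0% (7 unadjusted, DESeq2 0). The difference of the waterlogging responses between CMZ and 35S was called for 0, beside 0% (17 unadjusted, DESeq2 0). The median standard error of a factor's log2 difference was 0.24 in 35S and 0.32 in CMZ, which sets the size of change that could be seen.

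**Figure D3:**
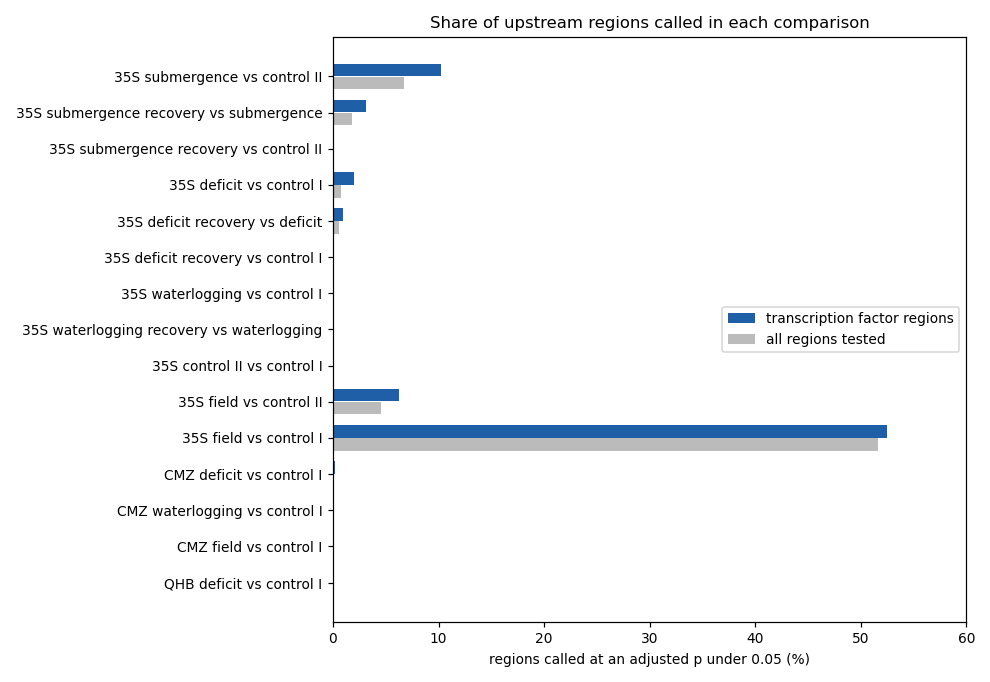
Percent of factor regions and percent of all regions called in 15 comparisons. The factors stand at 52.5% beside 51.6% in the 35S field and at 10.2% beside 6.73% in submergence, and at or near 0 in waterlogging and in CMZ.

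The field stood apart from control I in 35S over all regions, factors included. EdgeR called 338 of 644 factor regions (250 higher, 88 lower), or 52.5%, beside 51.6% of all regions. The share is near the background. By direction, 38.8% of factors were higher and 13.7% lower, beside 24.3% and 27.3% of all regions. Among regions whose gene had an RNA test, 41% of factor regions were higher and 11.6% lower, beside 30.1% and 18.4% of 25820 regions. The median log2 difference was 0.34 over factors and −0.01 over all regions. The kinase regions also leaned upward, with 270 of 716 higher and 127 lower. By family, 43 of 81 WRKY regions were higher and 9 lower, 15 of 35 NAC regions higher and 0 lower, 16 of 34 AP2 higher and 3 lower, and 13 of 25 MADS higher and 4 lower. MYB had 38 of 108 higher and 16 lower, bHLH 26 of 97 and 17, bZIP 15 of 40 and 4, and homeobox 14 of 35 and 8.

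The direction in the field varied with how accessible a region was. All regions were divided into 5 equal classes by their mean level over the libraries of all lines. These libraries include the field and control libraries compared, so class and field difference are not independent. The factors' median log2 difference from control I was −0.88, −0.24, 0.20, 0.47 and 0.87 from the least to the most accessible class. Over all regions the medians were −1.05, −0.53, −0.01, 0.37 and 0.72. Of the 250 higher factor regions, 149 were in the top class, which holds 190 factors. The field libraries also had a higher concentration of counts than control I, as given above, and field plants differed in age, so place, age and library quality cannot be told apart. In submergence against control II, the class medians of the factors ran from −0.04 in the least accessible class to 0.15 in the most accessible. The part of concentration in either class trend was not tested.

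**Figure D4:**
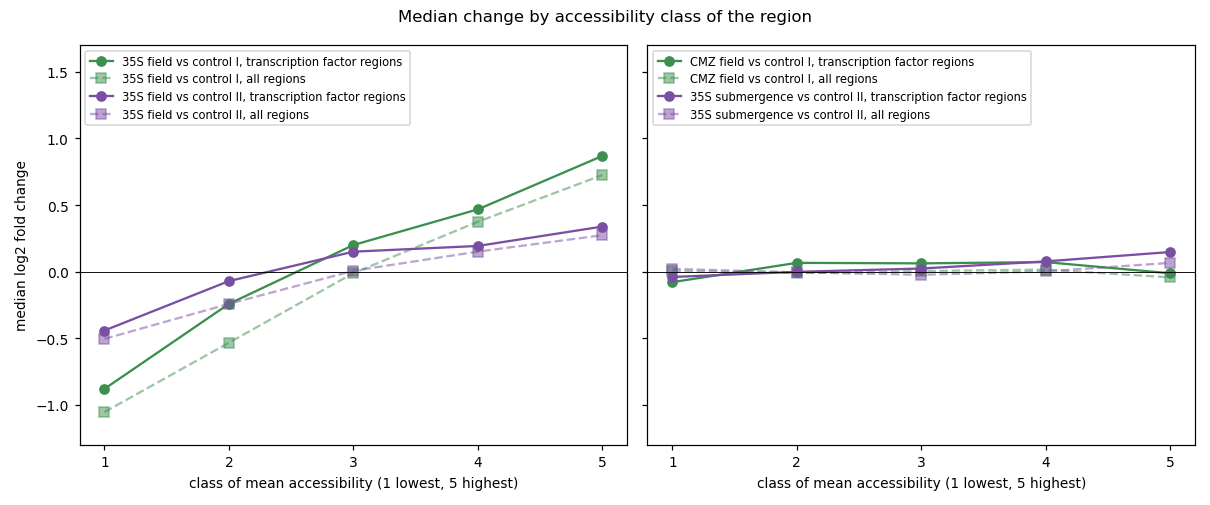
Median log2 difference by accessibility class (1 least, 5 most accessible) for factor regions and all regions in 35S field against control I and control II, CMZ field against control I and 35S submergence against control II. In 35S field against control I the factors run from −0.88 to 0.87; in CMZ the medians stay within 0.08 of 0.

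Against control II, chosen after seeing the data because its libraries are closer in concentration, the 35S field had 40 of 644 factor regions called (35 higher, 5 lower), or 6.21%, beside 4.55% of all regions. By direction, 5.43% of factor regions were higher and 0.776% lower, beside 1.93% and 2.62% of all regions. The class medians of the factors were −0.44, −0.07, 0.15, 0.19 and 0.34 in this comparison. The part of concentration in how the field comparisons with control I and control II differ was not tested. The count was 118 when only these groups were fitted. It was 1 without control II replicate 2, 3 without replicate 3, 20 without field replicate 1 and 16 without field replicate 2 or 3. The 2 controls themselves differed in 0 factor regions by edgeR, beside 0.0141% of all regions, with 181 at an unadjusted p below 0.05 and 60 by DESeq2; fitted alone, 172 were called, 134 of them higher in control II.

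Among the regions with the smallest p for a rise in the 35S field were 3 NAC genes. The NAC gene OS09G0509100 held 23.1, 22.6 and 23.5 CPM in control I, 38.5, 27.1 and 38.0 CPM in control II and 65.6, 62.2 and 61.3 CPM in the field. The field lay above both controls (log2 1.45 and edgeR adjusted p = 8.90e-07 against control I, 0.87 and 0.00849 against control II). OS01G0862800 held 16.1, 15.8 and 14.9 CPM in control I and 41.3, 37.4 and 59.0 CPM in the field. OS01G0672100 held 27.9, 30.4 and 42.7 CPM, then 114, 93.9 and 94.6 CPM. In control II OS01G0672100 averaged 59.7 ± 8.00 CPM (SD, n = 3), between its levels in control I and the field. Control I and field did not overlap in any of the 3.

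The LBM1-like MYB gene OS07G0558100 held 19.9, 20.4 and 18.0 CPM in control I, 31.0, 26.8 and 30.0 CPM in control II and 80.9, 54.6 and 59.98 CPM in the field, above both controls (log2 1.74 and 1.15, edgeR adjusted p = 7.79e-07 and 0.00421). The heat stress factor Spl7-like gene OS09G0456800 held 59.5, 43.4 and 53.0 CPM, then 107, 70.5 and 65.1 CPM in control II and 177, 159 and 158 CPM in the field, which did not overlap either control. ICE1, known as an inducer of cold response genes in Arabidopsis, has the rice relative OS01G0705700, whose region went from 26.0 ± 3.55 to 76.1 ± 7.75 CPM (SD, n = 3). The other 4 were a TCP gene (OS02G0635800), AP2 genes OS07G0674800 and OS02G0654700 (51.6 ± 6.22 to 154 ± 36.6 CPM) and WRKY28-like OS01G0584900. Their log2 differences ran from 1.31 for OS02G0635800 to 1.59 for OS02G0654700.

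The 10 regions with the smallest p for a fall in the field were all at low levels. The WRKY10-like gene OS04G0471700 held 17.2, 21.0 and 13.9 CPM in control I, 6.46, 7.94 and 11.7 CPM in control II and 5.94, 3.02 and 4.39 CPM in the field. The ROC2-like homeobox gene OS04G0627000, of the HD-Zip class known from the epidermis, held 12.9, 14.6 and 12.3 CPM, then 6.46, 12.9 and 9.44 CPM and 3.96, 2.72 and 3.50 CPM. In both the field was below both controls. The OSH15 homeobox gene OS07G0129700, a KNOX gene known from shoot meristems and internodes, went from 16.8 ± 2.62 to 6.23 ± 0.899 CPM. The other 7 were 5 MYB genes (OS07G0137000, OS08G0496700, OS01G0229000, OS12G0564100 and MYB71-like OS09G0431300), a helix-loop-helix gene (OS04G0429400) and a gene described only as a transcription factor (OS12G0116600). Their field means ran from 3.59 CPM for OS01G0229000 to 5.61 CPM for OS09G0431300.

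In the 35S field TRAP RNA was called for 49 of 604 factor genes (15 higher, 34 lower), or 8.11%, near the 7.49% of all genes. Directions were mixed against chromatin, among factors and over all regions. Of 247 factors with higher accessibility, 7 had higher RNA and 14 lower, beside 2.49% higher and 5.64% lower among all factors with both tests. Of 70 with lower accessibility, 0 had higher RNA and 2 lower. Over all regions with both tests, 2.32% of 7765 higher regions had higher RNA and 3.28% lower. Of 4759 lower regions, 3.34% had higher RNA and 6.14% lower. MADS genes were 4 of the 7 that rose in both, while the AGL16-II-like MADS gene OS04G0304400 rose in accessibility from 70.2 to 108 CPM and fell in RNA from 27.5 to 8.28 TPM (limma adjusted p = 0.000199).

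The MADS55-like gene OS06G0217300 held 24.1, 28.6 and 31.3 CPM in control I, 41.6, 46.4 and 40.2 CPM in control II and 82.6, 63.7 and 63.6 CPM in the field. The 3 groups do not overlap (log2 1.30, edgeR adjusted p = 4.75e-06 against control I, and 0.70, 0.0297 against control II). Its RNA went from 6.08 to 45.8 TPM (limma adjusted p = 1.33e-05). The AP1/FUL-like gene OS07G0605200 held 160, 94.4 and 129 CPM in control I and 265, 215 and 195 CPM in the field, without overlap, and its RNA went from 8.09 to 30.1 TPM (limma adjusted p = 1.78e-05). MADS15-like OS07G0108900 rose from 0.0502 to 1.85 TPM and from 32.5 to 50.1 CPM, and AGL18-like OS02G0104100 from 28.3 to 60.7 TPM and from 20.6 to 31.6 CPM. An HY5-like gene (OS02G0203000), a relative of the light-response factor of Arabidopsis, had the opposite signs, at 64.4 to 127 CPM and 22.4 to 4.49 TPM.

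In CMZ no factor region passed the test in the field. CMZ field against CMZ control I called 0 factor regions with edgeR, beside 0.00283% of all regions (48 unadjusted, DESeq2 0), and the class medians of the factors lay between −0.08 and 0.07. In the field, CMZ and 35S differed in 334 of 644 factor regions (84 higher in CMZ, 250 lower), beside 50.1% of all regions. By direction, 13% of factors were higher and 38.8% lower, beside 23.9% and 26.2% of all regions. From the least to the most accessible class, medians ran from 0.97 to −1.15 over factors and from 1.13 to −1.05 over all regions. The difference of field responses was called for 43 (6.68%), 15 higher (2.33%) and 28 lower (4.35%), beside 7.68%, 5.49% and 2.18% of all regions. It was called for 81 by DESeq2, and for 12 without 35S control I replicate 2, 14 without 35S field replicate 3, 17 without CMZ field replicate 2, 18 without CMZ control I replicate 3 and 25 without 35S field replicate 2. CMZ field libraries held 10.2 to 13.5% of counts in the top 5% of regions against 22.8 to 23.1% in 35S field; the part of this in the line difference was not tested.

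The 5 regions with the smallest p for a lower level in the CMZ field averaged from 35.6 CPM for OS12G0207200 to 119.5 CPM for OS08G0276200 in the 35S field. The WRKY44-like gene OS08G0276200, a relative of TRANSPARENT TESTA GLABRA 2, held 125, 125 and 109 CPM in the 35S field and 45.0, 26.8 and 32.3 CPM in the CMZ field. The GAMYB-binding region OS10G0408700 held 88.8, 77.7 and 68.7 CPM against 27.0, 22.3 and 20.5 CPM. The MADS14-like gene OS03G0752800 averaged 48.0 ± 5.10 CPM against 16.6 ± 7.00 CPM. All CMZ libraries lay below all 35S libraries in these 3.

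The other 2 regions with the smallest p for a lower level in CMZ were a Myb/SANT-like gene (OS12G0207200) and a second GAMYB-binding protein gene (OS03G0847600). The 5 higher in CMZ were low in the 35S field. For example, the MYB71-like region OS09G0431300 held 20.0 ± 1.09 CPM in CMZ and 5.61 ± 0.257 CPM in 35S. The rest were a myb gene (OS01G0229000), a GRAS gene (OS12G0138100), ROC2-like OS04G0627000 and WRKY30 (OS08G0499300), with log2 differences of 1.95 for OS12G0138100 to 2.41 for OS01G0229000.

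In control I few regions passed the test between lines. CMZ against 35S called 0 factor regions with edgeR, beside 0.017% of all regions (56 unadjusted, DESeq2 0). QHB against 35S called 1 factor region, beside 0.00283% of all regions, and it was the only region of any kind called there. That region belongs to the homeobox gene OS01G0854500. It held 129, 147 and 309 CPM in QHB control I and 31.1, 27.7 and 18.5 CPM in 35S control I, and 92.6, 95.6 and 159 CPM in QHB deficit. Every QHB library lay above every 35S and CMZ library of any environment. The difference from 35S was 2.91 (SE 0.34, edgeR adjusted p = 3.91e-09), and the call held whichever of the 6 libraries was left out. TRAP RNA of OS01G0854500 stood at 107, 202 and 211 TPM in the QHB line and at 0.251, 0.397 and 0.123 TPM in 35S. The labels name the QHB line by its promoter, and the files do not say whether this gene is the source of that promoter. Inserted copies of an upstream region and the region in its own place cannot be told apart in these counts.

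**Figure D5:**
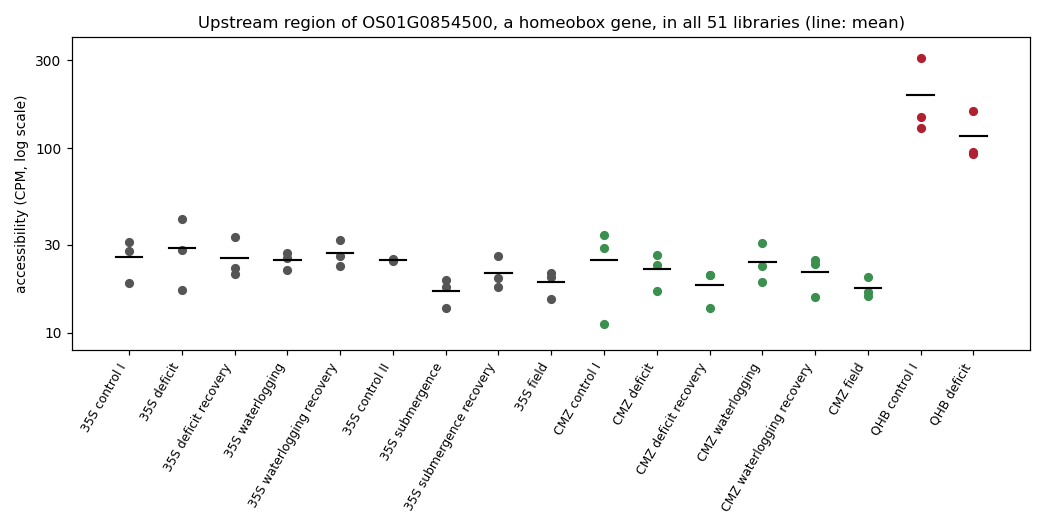
Accessibility in CPM (log axis) of the upstream region of homeobox gene OS01G0854500 in all 51 libraries, by line and environment. The 6 QHB libraries sit between 92.6 and 309 CPM, above all 35S and CMZ libraries.

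A set of 12 factor regions had been listed by identifier as possible regulators of low oxygen, drought, iron or root patterning responses, with results of these data known. Under submergence 0 of the 12 were called in chromatin, beside 6.73% of all regions, and RNA was called higher for 4 and lower for 1 of 11 tested, beside 20.1% of all genes. Under 35S deficit 0 were higher and 2 lower (the Achaete-scute related and bHLH regions above), beside 0.802% of all regions, with RNA higher for 2 and lower for 4 of 11, beside 14.4% of all genes. In the 35S field 5 were higher and 1 lower against control I, beside 51.6% of all regions, and 1 was higher against control II, beside 4.55%. The AP2 gene OS07G0674800 accounts for that call, at 30.5 ± 3.34 CPM in control II and 59.0 ± 24.0 CPM in the field (log2 0.97, edgeR adjusted p = 0.00906), although its field libraries reach into the range of control II. The NAC gene OS01G0884300 held 124.9 ± 2.78 CPM in control II and 195 ± 4.56 CPM in submergence, apart in level but not past the test over all regions (log2 0.64, edgeR adjusted p = 0.18). In QHB against 35S in control I, 1 of the 12 was called higher, beside 0.00283% of all regions. It was the region listed for root patterning, that of the homeobox gene OS01G0854500 described above.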

How the data were processed

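The ATAC table holds raw counts per region, as deposited by the authors, and its name places each region in the 2000 bases upstream of the ATG. The RNA table holds TPM; per the file headers the authors removed genes of low CPM, applied quantile normalization in limma voom and computed TPM from the result, so RNA depth is unknown. The submitters' processing notes name Bowtie2, TopHat2, HOMER, limma and build IRGSP-1.0, with no versions of the tools. RNA libraries of other lines were not used here. Another window length, or windows shared by neighbouring genes, could change the counts and were not tested.

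Here all regions were fitted per line with edgeR 4.0.16 in R 4.3.3 (TMM scaling, filterByExpr, robust quasi-likelihood test), with all groups of a line in its fit (35S, CMZ, QHB, and 1 fit across lines), and called at a Benjamini-Hochberg adjusted p below 0.05 over all regions tested. RNA was tested with limma 3.58.1 on log2(TPM + 1), for genes with at least 1 TPM in 3 libraries, at an adjusted p below 0.05 and a log2 change of at least 1. DESeq2 1.42.0, RLE scaling, a log2 limit of 0.5, no filter, only the groups compared, a replicate block, each library left out and log2(TPM + 0.1) were alternatives. The statistics were checked on simulated data. Factor regions, gene lists and tests were chosen with earlier results of these data known. Named regions are the 10 with the smallest p in each direction for 35S submergence, deficit and field and 5 elsewhere (mean count at least 10 in the higher group), the 10 highest and 5 lowest levels, those called most often and up to 10 called in both measures. Replicates are separate pots only in the greenhouse, so field p-values measure the spread between libraries.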

Additional observations from a re-analysis of the deposited data

Results flagged for a closer look

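The difference between CMZ and 35S in their field responses (field minus control I, log2, edgeR) passed the threshold for 43 factor regions. That is 6.68% of factor regions, beside 7.68% of all regions, and the count was 12 without 35S control I replicate 2. Values of the difference follow for 25 of the 43 regions, those looked at singly. These were named regions, regions called in both chromatin and RNA, the listed regions and the highest in level. A positive value means a higher response in CMZ. Among MYB genes it was 2.24 for MYB71-like OS09G0431300, 2.17 for OS01G0229000, 1.93 for OS07G0137000 and 1.67 for OS08G0496700, and −1.80 for OS12G0207200, −1.33 for LBM1-like OS07G0558100 and −1.15 for MYB86-like OS01G0702700. The GAMYB-binding protein gene OS03G0847600 stood at −1.31. Homeobox genes stood at 1.95 for OSH15 (OS07G0129700), 1.87 for ROC2-like OS04G0627000, −1.48 for HOX22-like OS04G0541700 and −1.39 for the BEL1-type gene OS01G0848400. WRKY genes stood at 1.97 for WRKY10-like OS04G0471700, 1.81 for WRKY30 (OS08G0499300) and −1.74 for WRKY28-like OS01G0584900.

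The 3 NAC regions, each named for a rise in the 35S field, were all negative. They stood at −1.82 for OS01G0862800, −1.41 for OS01G0672100 and −1.41 for OS09G0509100. The others stood at 2.61 for PCF5-like OS01G0213800, 2.33 for the GRAS gene OS12G0138100, 2.03 for the helix-loop-helix gene OS04G0429400, −1.14 for the TCP gene OS02G0635800, −1.22 for HBP-1b-like OS11G0152700, −1.68 for the NF-Y subunit A-1-like gene OS03G0696300 and −1.59 for MADS14-like OS03G0752800. The 35S and CMZ field libraries differ in how far their counts are concentrated in few regions, as given in the report, and the part of this in these differences was not tested. Several regions, the NAC regions among them, were looked at because they rose or fell in the 35S field. The difference subtracts that same 35S response, so the choice favoured negative values for rises and positive values for falls.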

How the results depend on the processing

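All values here are counts of factor regions or genes called. With only the groups compared in the fit, counts became 130 for submergence, 32 for its recovery against submergence, 3 for deficit recovery against deficit, 172 for control II against control I, 47 for CMZ deficit, 41 for CMZ deficit recovery and 118 for field against control II. DESeq2 called 35 for deficit recovery, 60 for control II against control I, 43 for CMZ deficit and 81 for the field response of CMZ minus 35S. Without a filter CMZ deficit had 2. In no comparison did the deviations of all 3 same-numbered pairs correlate above 0.1, although some came near it, such as 35S deficit recovery against deficit at 0.0626, 0.465 and 0.542 (all comparisons ranged from −0.398 to 0.639); by that limit the numbers were not taken to pair the samples. A replicate block gave 19 for deficit recovery, 60 for control II against control I, 2 for CMZ deficit and 99 for the field response. RLE scaling, a log2 limit of 0.5 and log2(TPM + 0.1) moved no count by over 1.5 times.

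Leaving out each library in turn gave 38 to 63 for submergence, 7 to 25 for its recovery, 2 to 12 for deficit, 2 to 50 for deficit recovery, 243 to 332 for field against control I, 1 to 43 for field against control II, 0 to 1 for CMZ deficit, 0 to 22 for QHB deficit, 1 for QHB against 35S, 238 to 317 for CMZ against 35S in the field and 12 to 62 for the field response. RNA counts ranged from 101 to 115 for submergence, 85 to 96 for 35S deficit, 32 to 76 for field, 32 to 44 for CMZ deficit and 27 to 54 for QHB deficit. For RNA, the field count was 32 without 35S control I replicate 3 and 76 without 35S field replicate 3, and the QHB count 27, 35 and 38 without deficit replicates 2 and 3 and control I replicate 2. The comparisons with 0 called stayed at 0 in every leave-out except QHB deficit. The causes of these shifts were not tested. Of the 20 named submergence regions 18 were called under all 11 alternatives, of the 20 field regions 20, of the 13 deficit regions 2 and of the 6 deficit recovery regions 2. Depth limits low regions most: in the shallowest library 1 count was worth 1.12 CPM.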
